A study of Rattus norvegicus with 18 samples.

Results

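The cortical transcriptome of rats was compared 1 day after subarachnoid hemorrhage (SAH 1d, 6 rats) and after sham surgery (sham, 6 rats), with 1 library per rat. SAH was produced in adult Sprague Dawley rats of 8 to 10 weeks by perforating an intracranial artery from inside, and sham rats were operated on alike but not perforated, so both groups carry anesthesia and the vascular access. The methods name the entire cortex of the operated side, whereas the deposited labels name cortex from both sides and mice, but the table carries rat gene identifiers. Sex is not given, and another group taken at 7 days (SAH 7d, 6 rats) appears only where values are set side by side. The genes compared were all those that passed a low-count filter, 18444 of the 30735 rows of the count table, with no choice by their outcome. The comparison of SAH 1d with sham was made with all 12 libraries and again without the library SAH 1d-3.

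Blood that enters the subarachnoid space raises intracranial pressure, lowers cerebral perfusion and exposes the cortex to hemoglobin and its breakdown products, and the events of the first days are called early brain injury. Neurons respond to such stress by changing the genes of ion transport and synaptic transmission, while astrocytes, microglia and vessels become reactive. Heat shock proteins, the unfolded protein response and antioxidant enzymes are the usual stress programs of injured tissue.

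The counts per library ranged from 27270026 to 38271014 in the 12 libraries. SAH 1d-3 was the deepest library and stood apart from the other 5 SAH 1d libraries in many gene groups below. Levels are given as CPM, the counts of a gene relative to the depth of its library, scaled by TMM effective library sizes. Cortical neuron markers were present in every library, with a summed level between 6412 and 10230 CPM in sham and between 4775 and 6312 CPM in SAH 1d, and 8 of 10 were lower in SAH 1d. Choroid plexus markers summed to between 142.6 and 1655 CPM in SAH 1d and to between 129.7 and 236.4 CPM in sham, and SAH 1d-4 and SAH 1d-6 held the high values. Striatal neuron markers ranged from 453.5 CPM in sham-3 to 2088 CPM in sham-1, and from 250.3 to 983.4 CPM in SAH 1d. All 12 of these markers had a negative log2 fold change, with a median of −1.24, and 3 passed the test. Mitochondrial transcripts made up 19.42% of the counts in sham-1 and 9.572% to 14.14% in the other 11 libraries. Of 13 neutrophil markers, 5 passed the low-count filter. These 5 summed to 7.353 to 11.15 CPM in sham (median 9.512) and to 17.37 to 160.1 CPM in SAH 1d (median 21.5). A marker could pass the filter through SAH libraries alone, so these sums do not measure a rise of neutrophils. No red blood cell marker passed the test.

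At 1 day, more genes were higher than lower, and the increases were larger. Differentially expressed genes (DEGs), defined as a Benjamini-Hochberg adjusted p under 0.05 in edgeR's quasi-likelihood test and a fold of at least 2, numbered 1028 higher (5.57% of the genes tested) and 196 lower (1.06%). Without the fold limit, 2748 genes were higher (14.9%) and 1936 lower (10.5%). The median fold was 3.13 among the DEGs that were higher and 2.48 among those that were lower. Without the fold limit, the medians were 1.69 and 1.43. All 6 SAH 1d libraries were above all 6 sham libraries for 1479 genes (8.02%) and below them for 991 genes (5.37%). Without sham-1, the number below all remaining sham libraries was 1656, and without SAH 1d-3 the shares above and below were 9.18% and 6.51%.

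The decreases were numerous but seldom reached 2-fold. Without the fold limit they fell on abundant genes, whereas the DEGs that were lower were mostly of low level. The median level in the higher group was 61.4 CPM for the genes that were lower at an adjusted p under 0.05, 18.2 CPM for those that were higher, and 14.8 CPM for all genes tested. With the fold limit, it was 3.03 CPM for the DEGs that were lower and 6.09 CPM for the DEGs that were higher. Among the 196 DEGs that were lower, 111 (56.6%) were loci outside the annotation and only 76 (38.8%) had a gene symbol. Such loci made up 16.8% of the genes tested and 10.7% of the DEGs that were higher. The share of calls that were higher also depended on the scale. It was 84.0% of the DEGs on the TMM scale and 95.0% in limma on log2(FPKM + 1), and 58.7% and 78.9% of the calls without the fold limit. The median log2 fold change of all genes was 0.0086 on the TMM scale and 0.1074 on log2(FPKM + 0.1).

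SAH 1d-3 was the extreme library in both directions. It held the highest value of its group in 65.3% of the DEGs that were higher and the lowest value in 63.8% of the DEGs that were lower, against 33.8% and 34.8% of all genes tested. These DEGs were called with SAH 1d-3 in the fit, which can favor genes in which it is extreme. The shares among DEGs called without it were not counted. Without it, 838 DEGs were higher (4.54%) and 170 lower (0.922%), and 2846 and 2406 genes passed an adjusted p under 0.05 (15.4% and 13%). Both fits shared 778 DEGs that were higher, which is 75.7% of those found with all 12 libraries and 92.8% of those found without SAH 1d-3. They shared 130 DEGs that were lower, or 66.3% and 76.5%. Of the genes called without the fold limit with all 12 libraries, 2530 of the higher and 1829 of the lower were called again without SAH 1d-3.

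A set of 49 gene lists with 1547 distinct genes tested was used to describe functions. A member could pass the low-count filter through SAH libraries alone, which can raise the share of a list that was higher. The lists of neuronal signaling had negative medians, and the lists of reactive glia, complement, chemokines, vessel activation, proteolysis and the stress responses had positive ones.

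**Figure D1:**
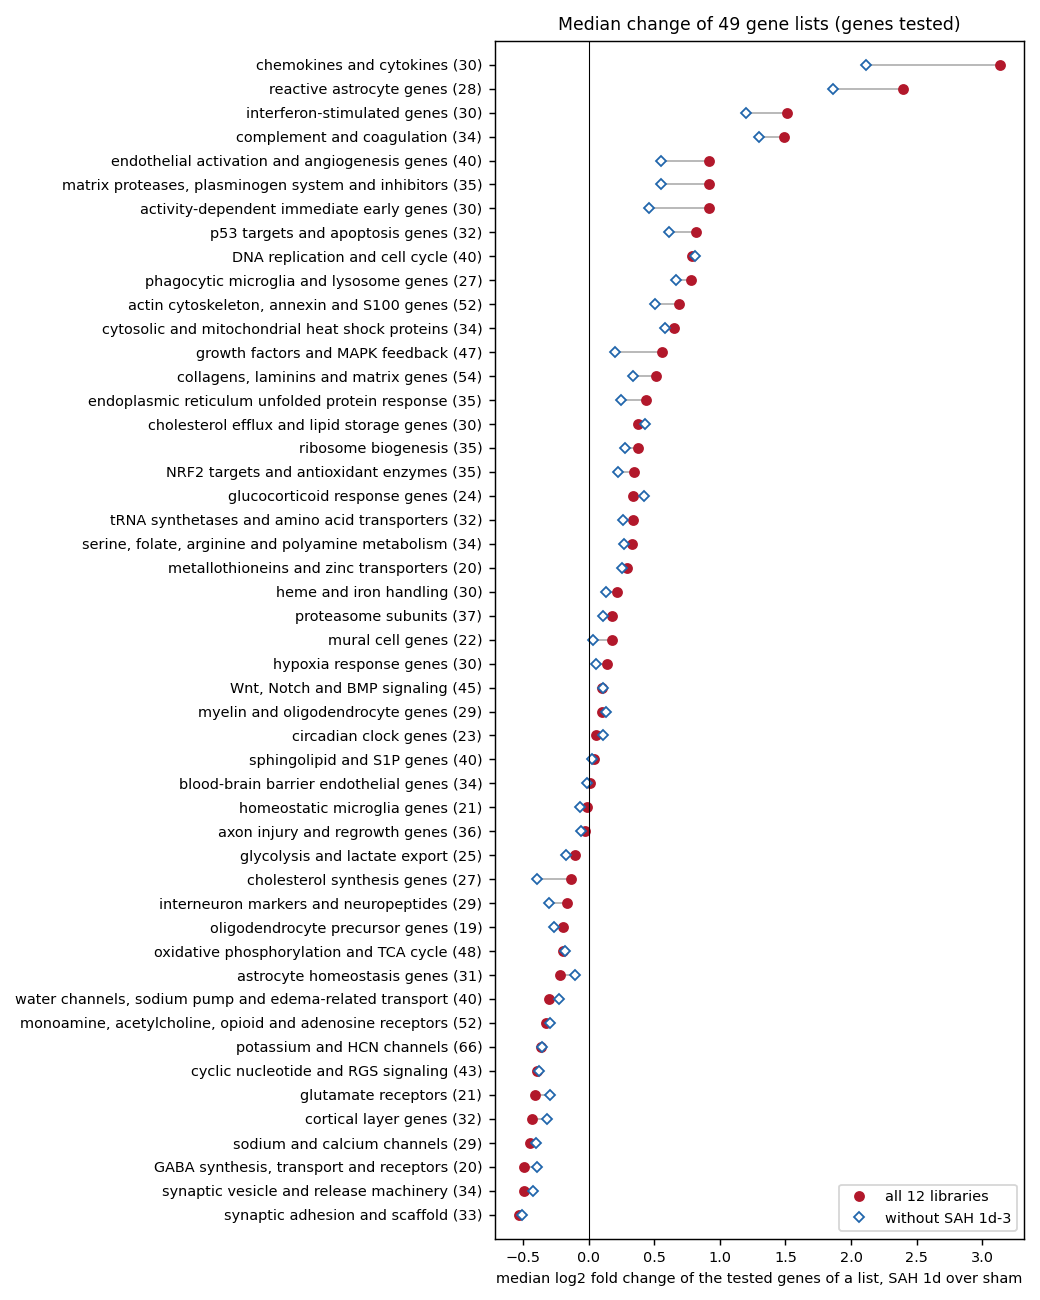
Median log2 fold change (SAH 1d over sham, x axis) of the tested genes of each of 49 gene lists (y axis, number of genes tested in parentheses), with all 12 libraries (filled circles) and without SAH 1d-3 (open diamonds). Chemokines and reactive astrocyte genes lie at 3.14 and 2.40 and move to 2.11 and 1.86 without SAH 1d-3, while synaptic adhesion genes lie at −0.53 and −0.51.

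Among the largest decreases that held without SAH 1d-3 were those of Sptssb, Cxcl12, Cartpt, Fstl4 and Camkk2. Sptssb (ENSRNOG00000009388), a small subunit that activates serine palmitoyltransferase, the first enzyme of sphingolipid synthesis, ranged from 23.4 to 44.6 CPM in sham with a median of 34.5, and from 8.68 to 12.8 CPM in SAH 1d with a median of 9.28. The groups did not overlap, and 5 of the 6 SAH 1d libraries lay within 8.68 to 9.78 CPM. The log2 fold change was −1.79 ± 0.15 (standard error, as in all values below), with an adjusted p of 1.81e-05, and −1.75 without SAH 1d-3. Among 40 tested genes of sphingolipid and sphingosine 1-phosphate (S1P) metabolism, 6 were higher (15%, against 14.9% of all genes) and 4 lower (10%, against 10.5%), with a median of 0.04. Thus the list as a whole was at the background. Among its members, S1pr3, a receptor for S1P, rose by 2.23 ± 0.21 on the log2 scale (adjusted p 3.7e-05), and S1pr1, the S1P receptor of endothelium and astrocytes, fell by 0.58 on that scale (adjusted p 0.00923).

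Cxcl12, a chemokine of vessels and neurons that guides cells by way of Cxcr4, ranged from 79.3 to 125 CPM in sham (median 101) and from 20.3 to 56.1 CPM in SAH 1d (median 39.5). SAH 1d-3 was the lowest library, and the groups did not overlap. The change came to −1.33 ± 0.20 on the log2 scale (adjusted p 0.000679), and −1.19 without SAH 1d-3.

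Cartpt, a neuropeptide precursor, ranged from 3.34 to 7.61 CPM in sham (median 4.63) and from 0.642 to 2.11 CPM in SAH 1d (median 1.44), with a log2 fold change of −1.74 ± 0.31 (adjusted p 0.0019). Fstl4, a secreted protein of the follistatin family, ranged from 15.8 to 27.1 CPM in sham (median 20.4) and from 6.92 to 12.4 CPM in SAH 1d (median 8.53), with −1.24 ± 0.17 (adjusted p 0.00036). Neither gene overlapped between the groups, and neither had its lowest value in SAH 1d-3. Lamp5, a membrane protein of superficial cortical neurons and of a class of interneurons, fell by 1.17 ± 0.18 on the log2 scale (adjusted p 0.001), from a median of 237 to 109 CPM. Camkk2, the kinase that activates CaMKI, CaMKIV and AMPK, fell by 1.23 ± 0.27 (adjusted p 0.00606), from a sham range of 42.2 to 60.6 CPM to 6.84 to 33.9 CPM. Its lowest value, 6.84 CPM, was that of SAH 1d-3, and the log2 fold change without that library was −1.04.

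Other genes of this kind were Enthd1 (−1.97), Pld5 (−1.53), the homeobox gene Barx2 (−1.11) and the matrix proteoglycan Spock3 (−1.11), none of which overlapped between the groups. Enthd1 was low, with a sham median of 4.68 CPM. For 2 others, sham-1, the library with the most striatal marker RNA, held the highest sham value of Ddc, the enzyme that makes dopamine and serotonin (19.9 CPM against a sham median of 7) and of Ttpa (38.9 against 16.8 CPM). Their log2 fold changes were −1.59 and −1.33 with all libraries and −1.18 and −1.02 without sham-1, and the part of the striatal RNA in them was not tested. In whole tissue, fewer cells of a type and less RNA per cell cannot be told apart, which holds for every decrease described here.

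**Figure D2:**
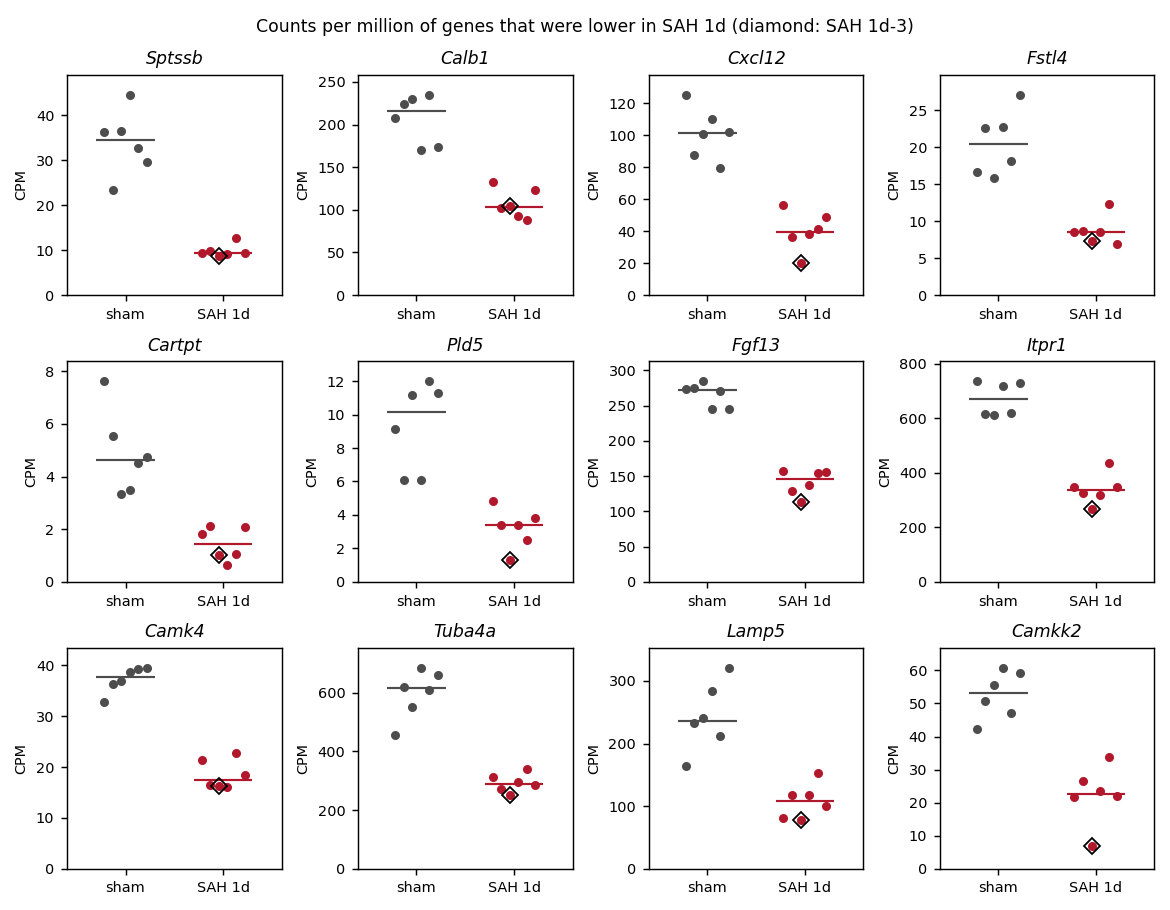
CPM (y axis, linear from 0) of 12 genes that were lower in SAH 1d, with 1 point per rat, libraries 1 to 6 from left to right in each group, a line at the group median and a diamond around SAH 1d-3. The 6 SAH 1d points of Sptssb lie between 8.68 and 12.8 CPM, all below the lowest sham point at 23.4 CPM, and those of Itpr1 lie between 267 and 438 CPM against 611 to 736 CPM in sham.

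The decreases with the lowest adjusted p were those of genes with little spread among the sham rats. Fgf13, an intracellular factor that binds sodium channels, ranged from 244 to 284 CPM in sham (median 272) and from 113 to 158 CPM in SAH 1d (median 146). The change on the log2 scale was −0.91 ± 0.09 (adjusted p 3.91e-05). Itpr1, the inositol trisphosphate receptor that releases calcium from the endoplasmic reticulum, went from a sham median of 670 CPM to 336 CPM, with −0.98 ± 0.11 (adjusted p 8.03e-05). Both genes separated the groups with a wide gap, and both had their lowest value in SAH 1d-3. Tuba4a, an alpha tubulin, went from a median of 616 to 291 CPM (−1.03 ± 0.11, adjusted p 5.6e-05). Camk4, the nuclear calcium and calmodulin kinase that phosphorylates CREB, went from a median of 37.8 to 17.5 CPM (−0.97 without SAH 1d-3, adjusted p 5.6e-05 with all libraries). Cbarp, a regulator of voltage-gated calcium channels, changed by −0.91, and the vesicle trafficking GTPase Rab15 by −0.70. Spata2L and the ubiquitin ligase component Fbxo9 changed by −0.75 and −0.60. Without SAH 1d-3, the log2 fold changes of these 8 genes lay between −0.98 and −0.61. The tenth was a row of Calm2, a symbol that 2 rows of the table carry, and no value is given for it.

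Genes of the presynaptic terminal and of the postsynaptic scaffold were lower as groups of many small decreases. Of 34 tested genes of synaptic vesicles and release, 20 were lower and none higher (58.8%, against 10.5% of all genes tested), with a median log2 fold change of −0.49 against 0.0086 for all genes. Snap25, a core SNARE protein, ranged from 2353 to 4421 CPM in sham (median 3432) and from 1723 to 2325 CPM in SAH 1d (median 2035). All SAH 1d libraries were below all sham libraries, but the lowest sham library, sham-1, was close to the highest SAH 1d library. On the log2 scale the difference was −0.73 ± 0.13 (adjusted p 0.00225). Rph3a, a Rab3 effector on vesicles, changed by −0.90 ± 0.14 (adjusted p 0.000802), the vesicle SNARE Vamp2 by −0.58 and the priming factor Unc13a by −0.72. Without SAH 1d-3, 21 of the 34 genes were lower and the median was −0.43. Of 33 tested synaptic adhesion and scaffold genes, 23 were lower (69.7%) and none higher, with a median of −0.53. Camk2b, the beta subunit of the abundant postsynaptic kinase, went from a median of 673 to 379 CPM (−0.78 ± 0.10, adjusted p 0.00024). Nlgn1, an adhesion protein of excitatory synapses, changed by −0.60, Lrrtm4 by −0.68 and Cntnap1, a protein of the axonal paranode, by −0.68. The medians of both lists kept their negative sign in limma on log2(FPKM + 1).

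Receptor genes for both main transmitters of the cortex were lower. Of 20 tested genes of GABA synthesis, transport and reception, 16 were lower and none higher, with a median of −0.49. The receptor subunits Gabra5 (−0.64 ± 0.09, adjusted p 0.000527), Gabra4 (−0.77) and Gabrg1 (−0.81) were among them. Gabra4 ranged from 249 to 295 CPM in sham and from 88.8 to 191 CPM in SAH 1d, without overlap, and the low end was SAH 1d-3. Of 21 tested glutamate receptor genes, 6 were lower (28.6%) and none higher, with a median of −0.41, and 20 of the 21 had a negative value. The AMPA receptor subunits Gria4 (−0.81 ± 0.13), Gria3 (−0.86) and Gria2 (−0.78) passed the test, as did the metabotropic receptor Grm7 (−0.62). Gria2 ranged from 635 to 817 CPM in sham and from 204 to 513 CPM in SAH 1d, and SAH 1d-3 was lowest. Its log2 fold change without SAH 1d-3 was −0.64 with a lower adjusted p, 0.000322 against 0.00788, and 9 glutamate receptor genes then passed the test. The difference between the 2 receptor families was not tested.

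Ion channels followed the same direction. Of 66 tested potassium and HCN channel genes, 24 were lower (36.4%) and 2 higher, with a median of −0.37. Kcnip2, a subunit of the transient outward current, changed by −1.06 ± 0.17 (adjusted p 0.0011), the background potassium channel Kcnk2 by −0.71 and the silent subunit Kcnv1 by −1.03. Kcnn4, the calcium-activated potassium channel of immune cells and reactive microglia, was 1 of the 2 that rose. It ranged from 0.309 to 0.629 CPM in sham and from 1.85 to 4.07 CPM in SAH 1d, with 2.51 ± 0.26 (adjusted p 5.43e-05). Of 29 tested sodium and calcium channel genes, 15 were lower (51.7%) and none higher, with a median of −0.45. The sodium channel subunits Scn3b (−0.83 ± 0.11, adjusted p 0.00038) and Scn2a (−0.79) and the calcium channel subunits Cacng8 (−0.70) and Cacna2d3 (−0.55) were among them. Without SAH 1d-3 the 2 channel lists held 27 and 18 lower genes.

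Receptors for monoamines, acetylcholine, opioids, somatostatin and adenosine were lower where they passed the test. Of 52 tested, 11 were lower (21.2%) and none higher, with a median of −0.33. Htr2a, the serotonin 2A receptor, ranged from 51.4 to 106 CPM in sham (median 75.2) and from 29.7 to 47.4 CPM in SAH 1d (median 41), with −0.94 ± 0.16 (adjusted p 0.00166). The groups of Htr2a did not overlap. Sstr3, a somatostatin receptor, changed by −0.83 and Npy5r, a receptor for neuropeptide Y, by −0.87. Of 43 genes of cyclic nucleotide and RGS signaling, 17 were lower (39.5%) and 1 higher, with a median of −0.40. The adenylyl cyclase Adcy2 (−0.52), the phosphodiesterase Pde8b (−0.71) and the regulatory subunit Prkar2b (−0.67) were lower. The one that rose was Rgs16, a brake on G protein signaling, from a median of 9.89 to 26.4 CPM (1.56 ± 0.19, adjusted p 0.000181). Striatal neuron markers were also lower in SAH 1d, with a median of −1.24, and the part of striatal RNA in these 2 lists was not tested.

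Marker genes of cortical layers were lower in 11 of 32 cases (34.4%) and higher in 1, with a median of −0.43 that became −0.32 without SAH 1d-3. Otof, otoferlin, changed by −1.17 ± 0.25 (adjusted p 0.00509). Nrgn, the calmodulin-binding protein neurogranin of dendrites, is outside this list. It ranged from 1048 to 1604 CPM in sham (median 1265) and from 280 to 790 CPM in SAH 1d (median 644). SAH 1d-3 was the lowest library by far, and the other 5 also lay below every sham library. The log2 fold change of Nrgn was −1.07 ± 0.20 (adjusted p 0.00264), and −0.92 without SAH 1d-3.

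Interneuron markers and neuropeptides were near the background with all 12 libraries but not without SAH 1d-3. Of 29 tested, 3 were lower (10.3%, near the 10.5% of all genes) and 2 higher, with a median of −0.17. Calb1, a calcium-binding protein, fell from a median of 216 to 103 CPM (−0.95 ± 0.12, adjusted p 0.000237), without overlap. The markers of the main interneuron classes did not pass the test, with −0.40 ± 0.25 for Pvalb (adjusted p 0.264), −0.27 ± 0.15 for Sst (0.212) and −0.20 ± 0.18 for Vip (0.439). Gal, the precursor of galanin, rose from a median of 0.662 to 2.39 CPM (2.97 ± 0.69, adjusted p 0.00823), and SAH 1d-3 reached 16.8 CPM. Without SAH 1d-3 the log2 fold change of Gal was 1.93. In that fit, 7 of the 29 genes were lower and 1 higher, with a median of −0.31, and 13% of all genes were lower.

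Genes of ion transport were lower in larger numbers than higher. Of 40 tested genes of water channels, the sodium pump and edema-related transport, 14 were lower (35.0%) and 6 higher, with a median of −0.30. Atp1b1, a beta subunit of the sodium pump, changed by −0.40 (adjusted p 0.0134). Fxyd7, a neuronal modulator of the pump, fell from a median of 54.1 to 27.4 CPM (−1.04 ± 0.19, adjusted p 0.00234). Among calcium pumps, Atp2a2 of the endoplasmic reticulum changed by −0.63 ± 0.08 (adjusted p 0.000246), and Atp2b1 of the plasma membrane by −0.60.

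Of the water channels, Aqp1 rose and Aqp4 did not pass the test. Aqp1 ranged from 2.63 to 6.68 CPM in sham (median 3.08) and from 16.3 to 33.7 CPM in SAH 1d (median 20.8). Every SAH 1d library was above every sham library, with 2.43 ± 0.29 (adjusted p 0.000134). Aqp1 is also a choroid plexus marker, its highest value was that of SAH 1d-6, and its log2 fold change without SAH 1d-4 and SAH 1d-6 was 2.19. Aqp4, the water channel of astrocyte endfeet, had medians of 614 and 758 CPM in overlapping groups (0.26 ± 0.19, adjusted p 0.334). Fxyd5 (1.79 ± 0.26) and Slc12a7, the potassium chloride cotransporter KCC4 (1.19 ± 0.18), rose.

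Genes of oxidative phosphorylation moved in small steps, from −0.52 to 0.12 on the log2 scale. Of 48 tested genes of oxidative phosphorylation and the TCA cycle, 16 were lower (33.3%) and none higher, with a median of −0.20, and 46 of 48 had a negative value. Ndufa4 ranged from 169 to 188 CPM in sham and from 124 to 149 CPM in SAH 1d, without overlap (−0.38 ± 0.06, adjusted p 0.00151). Mdh1 changed by −0.52, Ndufs4 by −0.33 and Uqcrc2 by −0.25. With all 18 libraries in 1 fit, which takes the spread of the SAH 7d libraries into the estimate, Ndufa4, Ndufs4 and Uqcrc2 no longer passed the test. Genes of glycolysis and lactate export went both ways, with 6 of 25 higher (24.0%) and 8 lower (32.0%). Of all genes, 14.9% were higher and 10.5% lower. Pfkfb3, the enzyme that makes the activator of phosphofructokinase (1.12 ± 0.25), the lactate transporters Slc16a1 (0.77) and Slc16a3 (2.39), and Hk3, the hexokinase of myeloid cells, rose. Hk3 was at 0.0758 CPM or less in sham and at 0.365 to 4.82 CPM in SAH 1d. Ldhb (−0.53), a lactate dehydrogenase, Pfkm (−0.51), a phosphofructokinase, and Aldoc (−0.62), the aldolase of astrocytes, were lower, and each lost its call with all 18 libraries in 1 fit.

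The cholesterol synthesis genes depended on SAH 1d-3. With all 12 libraries, 6 of 27 were lower (22.2%) and none higher, with a median of −0.14. Without SAH 1d-3, 15 of 27 were lower, against 13% of all genes, and the median was −0.40. Hmgcs1, an early enzyme of the pathway, ranged from 461 to 662 CPM in sham (median 486) and from 273 to 575 CPM in SAH 1d (median 309). The high value was that of SAH 1d-3, and the other 5 libraries lay lower than the sham median. Its log2 fold change was −0.56 ± 0.18 (adjusted p 0.0335) with all 12 libraries and −0.75 (adjusted p 0.000678) without SAH 1d-3. The first of these calls was also lost when any 1 of SAH 1d-1, SAH 1d-2, SAH 1d-4, SAH 1d-6, sham-1 or sham-5 was left out, with log2 fold changes of −0.53 to −0.49, and without both SAH 1d-4 and SAH 1d-6. Fdft1, squalene synthase, went from −0.36 ± 0.22 (adjusted p 0.242) to −0.67 (adjusted p 4.84e-05) when SAH 1d-3 was left out. Insig1, a sterol-responsive regulator of the pathway, was at 246 CPM in SAH 1d-3, at 73.9 to 119 CPM in the other SAH 1d libraries and at 112 to 136 CPM in sham. The difference on the log2 scale came to −0.11 ± 0.27 (adjusted p 0.802), and −0.49 (adjusted p 0.00646) without SAH 1d-3. Fdps, farnesyl diphosphate synthase, at −0.34, passed the test both ways.

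Cholesterol efflux and lipid storage genes moved the other way. Of 30 tested, 15 were higher and 1 lower, with a median of 0.38 and of 0.43 without SAH 1d-3. Ch25h, which makes 25-hydroxycholesterol, rose from a median of 2.89 to 18 CPM (2.81 ± 0.26, adjusted p 3.38e-05). The scavenger receptors Olr1 (4.15 ± 0.56) and Msr1 (4.34 ± 0.61) had their highest values in SAH 1d-3, 60.7 and 46.1 CPM, and their log2 fold changes without it were 3.37 and 3.45. Cyp46a1, the neuronal enzyme that turns cholesterol over to 24-hydroxycholesterol, was the member that was lower (−0.58 ± 0.13, adjusted p 0.00708).

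Reactive astrocyte genes rose in 24 of 28 cases (85.7%, against 14.9%) and none was lower, with a median of 2.40 and of 1.86 without SAH 1d-3. Gfap, the intermediate filament of astrocytes, ranged from 286 to 539 CPM in sham (median 340) and from 2235 to 3807 CPM in SAH 1d (median 2829). No SAH 1d library came near the sham range, and the fold was 8.02 (adjusted p 1.37e-06), with a log2 fold change of 2.91 without SAH 1d-3. Vim, another intermediate filament, rose by 1.93, and Lcn2, an iron-binding secreted protein, by 5.57 ± 0.42 (adjusted p 9.39e-06), from a median of 0.671 to 27.2 CPM, with its highest value in SAH 1d-4. Genes of astrocyte homeostasis were lower in 6 (19.4%, against 10.5% of all genes) and higher in 3 (9.68%) of 31 cases. Hapln1, which links hyaluronan in perineuronal nets (−1.16 ± 0.27), the GABA transporter Slc6a11 (−0.90) and Acsl6 (−0.76) were lower, and the urea channel Slc14a1 rose (1.12 ± 0.16). Their summed score was lowest in SAH 1d-3, and without it 9 genes were lower and 4 higher.

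Few oligodendrocyte and precursor genes passed the test. Of 29 myelin and oligodendrocyte genes, 5 were higher (17.2%, against 14.9% of all genes) and 1 lower (3.45%), with a median of 0.10. Of 19 precursor genes, 2 were lower (10.5%, the same share as for all genes) and none higher. Thus the share of myelin genes that was higher and that of precursor genes that was lower were at the background. Tf, transferrin, which oligodendrocytes and choroid plexus make, ranged from 340 to 635 CPM in sham and from 730 to 1688 CPM in SAH 1d (1.14 ± 0.20, adjusted p 0.00188), with its highest value in SAH 1d-3. Without SAH 1d-4 and SAH 1d-6 its log2 fold change was 1.12.

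Most phagocytic and lysosomal genes of microglia rose, while genes of homeostatic microglia went both ways. Of 27 tested phagocytic and lysosomal genes, 17 were higher (63.0%) and none lower, with a median of 0.78. Gpnmb, a glycoprotein of phagocytic microglia and macrophages, ranged from 6.39 to 11.6 CPM in sham (median 9.82) and from 99.5 to 222 CPM in SAH 1d (median 116). The groups were far apart, with 3.82 ± 0.23 (adjusted p 1.37e-06). The lysosomal proteases Ctsz (2.22 ± 0.18) and Ctsd (0.66 ± 0.07) and the lectin Lgals3 (4.43 ± 0.40) rose as well. Of 21 tested genes of homeostatic microglia, 5 were lower (23.8%) and 1 higher, with a median of −0.01 that took the opposite sign on the FPKM scales. The other 15 did not pass the test, and 9 of the 21 values were positive and 12 negative. Without SAH 1d-3, 6 were lower and 4 higher. P2ry12, the receptor by which microglia sense ATP, ranged from 12.8 to 33.7 CPM in sham and from 2.25 to 13.1 CPM in SAH 1d, with a slight overlap. Its log2 fold change was −1.19 ± 0.35 (adjusted p 0.0251), and −1.04 (adjusted p 0.0573) without sham-3. P2ry13 changed by −1.06 ± 0.27 (adjusted p 0.0136).

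Most genes of heat shock proteins were higher in SAH 1d. The cytosolic and mitochondrial chaperones fold or disaggregate other proteins, and heat shock factor 1 binds inverted repeats of nGAAn in their promoters. Such repeats are shown here for members whose mRNA rose, from RefSeq promoters of the rat build GRCr8, a build other than that of the counts. Each window starts up to 20 bases before the outermost match and ends at or before the transcription start, runs 5′ to 3′ on the strand of the gene, and has the matches to GAANNTTC or TTCNNGAA in capitals. Hspb1 (minus strand) is at chr12:26432371-26432450, Hspe1 (plus) at chr9:64084242-64084321, Bag3 (plus) at chr1:192533308-192533387, Dnaja1 (plus) at chr5:60638203-60638282, Dnajb1 (minus) at chr19:41431142-41431172, Stip1 (minus) at chr1:213657655-213657682 and Hsph1 (plus) at chr12:10427243-10427322.
Hspb1: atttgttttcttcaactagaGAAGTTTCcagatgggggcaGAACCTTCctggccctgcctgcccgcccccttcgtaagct
Hspe1: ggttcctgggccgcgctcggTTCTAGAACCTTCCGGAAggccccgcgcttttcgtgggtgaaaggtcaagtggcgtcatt
Bag3: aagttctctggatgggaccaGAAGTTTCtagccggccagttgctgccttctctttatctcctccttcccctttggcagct
Dnaja1: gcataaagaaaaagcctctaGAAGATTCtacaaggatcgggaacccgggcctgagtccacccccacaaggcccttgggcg
Dnajb1: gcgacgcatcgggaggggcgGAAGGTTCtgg
Stip1: tcccggcagcttctagtaggTTCCAGAA
Hsph1: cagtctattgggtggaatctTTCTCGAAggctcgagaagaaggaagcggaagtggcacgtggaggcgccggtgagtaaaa

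The Hspe1 window holds 3 overlapping matches, and the same bases, read on the other strand, lie in the promoter of Hspd1, since these 2 genes start close to each other and point away from each other. A match to either form of the motif, on either strand, was found in 17 of the 27 promoters of the list that the RefSeq table holds (63.0%) and in 14 of the 20 whose genes passed the test (70.0%). It was found in 15.4% of all 27457 promoters of this length, from 250 bases before to 50 after the start, and in 11.3% of the 11154 promoters of tested genes. A match is a feature of the sequence and was not tested for binding.

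Of 34 tested cytosolic and mitochondrial heat shock genes, 24 were higher (70.6%, against 14.9% of all genes) and none lower, and for 23 of the 34 all SAH 1d libraries were above all sham libraries. The median was 0.65, and 0.58 without SAH 1d-3, when 26 were higher and 2 lower. Hspa1a (ENSRNOG00000045654), the inducible HSP70, ranged from 0.0333 to 3.44 CPM in sham (median 1.15) and from 325 to 548 CPM in SAH 1d (median 388). In sham the values fell into 3 libraries at 0.0758 CPM or less and 3 at 2.22 CPM or more, all far below the SAH 1d libraries. The log2 fold change was 8.14 ± 0.74 (adjusted p 2.42e-05), a fold of 282, and 8.16 without SAH 1d-3. The rat genome holds a near-identical copy, Hspa1b, so the counts may be shared between the copies. Hspb1, the small chaperone HSP27, ranged from 2.6 to 7.68 CPM in sham (median 3.92) and from 110 to 340 CPM in SAH 1d (median 135). SAH 1d-3 held the highest value, and the log2 fold change was 5.28 ± 0.35 (adjusted p 3.15e-06) with it and 4.96 without it.

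The other chaperones rose by smaller factors with little spread. Hspd1, the mitochondrial HSP60, ranged from 236 to 281 CPM in sham (median 269) and from 562 to 848 CPM in SAH 1d (median 649), with 1.35 ± 0.10 (adjusted p 9.9e-06). Its partner Hspe1, HSP10, rose by 1.58 ± 0.15. Hsph1, the HSP110 nucleotide exchange factor, ranged from 358 to 434 CPM in sham (median 383) and from 884 to 2101 CPM in SAH 1d (median 1590), with 1.99 ± 0.18 (adjusted p 2.31e-05). Here SAH 1d-3 was the lowest SAH 1d library, and the value without it was 2.10. SAH 1d-3 was also the lowest of its group for Dnaja1 (1.12 ± 0.09), Dnajb1 (1.04), Stip1 (1.15) and Chordc1 (1.05), cochaperones of HSP70 and HSP90. Bag3, a cochaperone that directs HSP70 clients to autophagy, rose by 2.44 ± 0.26 (adjusted p 6.57e-05), and Hsp90aa1, the inducible HSP90, by 0.90 ± 0.08 from a median of 1301 to 2454 CPM. Zfand2a, a stress-induced zinc finger protein outside the list, was among the 10 increases with the lowest adjusted p (2.09 ± 0.16, adjusted p 9.39e-06), as was the pseudokinase Stk40 (1.33 ± 0.09, adjusted p 3.67e-06).

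**Figure D3:**
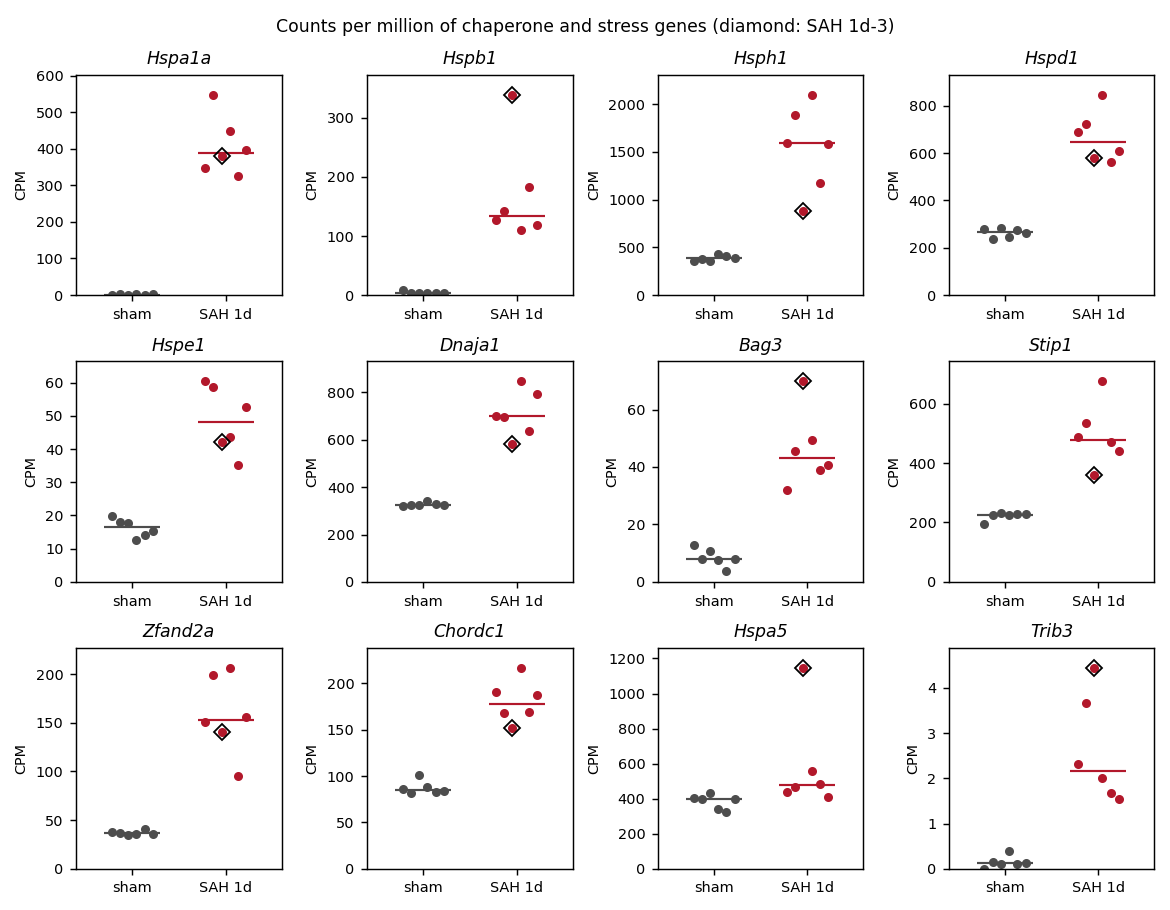
CPM (y axis, linear from 0) of 12 chaperone and stress genes, with 1 point per rat, libraries 1 to 6 from left to right in each group, a line at the group median and a diamond around SAH 1d-3. Hspa1a lies at 325 to 548 CPM in SAH 1d and at 3.44 CPM or less in sham, Hsph1 has its lowest SAH 1d value, 884 CPM, in SAH 1d-3, and Hspa5 reaches 1144 CPM only in SAH 1d-3.

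Stress genes of the endoplasmic reticulum rose too. Of 35 tested genes of its unfolded protein response, 16 were higher (45.7%) and 1 lower, with a median of 0.43 and of 0.25 without SAH 1d-3. Hspa5, the chaperone BiP, ranged from 325 to 434 CPM in sham (median 399) and from 411 to 1144 CPM in SAH 1d (median 477). SAH 1d-3 held the value of 1144 CPM, and the log2 fold change was 0.61 ± 0.22 (adjusted p 0.0606) with it and 0.30 (adjusted p 0.03) without it. The genes with the lowest adjusted p belong to the branch that ATF4 controls. Chac1, which degrades glutathione, rose from a median of 11.3 to 28.5 CPM (1.45 ± 0.16, adjusted p 8.89e-05), Sesn2 by 1.48, the pseudokinase Trib3 by 4.08 ± 0.53 from a median of 0.123 to 2.15 CPM, and Ppp1r15a, which reverses the block of translation, by 1.52. The member that was lower was Calr4 (−2.09 ± 0.33, adjusted p 0.000936), a calreticulin of low level with medians of 1.66 and 0.403 CPM.

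Genes that supply translation and protein turnover rose by small and even steps. Of 32 tRNA synthetase and amino acid transporter genes, 18 were higher (56.2%) and none lower, with a median of 0.33. Yars, the tyrosyl-tRNA synthetase, ranged from 89.7 to 110 CPM in sham and from 162 to 215 CPM in SAH 1d (0.84 ± 0.09, adjusted p 6.01e-05), and Rars (0.72) and Eprs (0.86) rose as well. Of 35 ribosome biogenesis genes, 20 were higher (57.1%) and none lower, and all 35 values were positive, with a median of 0.38. Myc, the transcription factor that drives this program, rose from a median of 3.52 to 13.2 CPM (2.31 ± 0.39, adjusted p 0.00143), with 49.7 CPM in SAH 1d-3 and a log2 fold change of 1.74 without it. Mybbp1a (0.57) and Mrto4 (0.59) were typical members. Of 37 proteasome genes, 11 were higher (29.7%) and none lower, with a median of 0.18. The lowest adjusted p values there were those of the interferon-induced subunits Psme1 (1.40 ± 0.18), Psme2 (1.13), Psmb9 (2.01) and Psmb8 (2.29). Of 34 genes of serine, folate, arginine and polyamine metabolism, 14 were higher (41.2%) and 3 lower. The mitochondrial folate enzymes Mthfd2 (1.79 ± 0.19, adjusted p 6.01e-05) and Shmt2 (1.07) and the serine enzyme Psph (0.64) rose, and Oat, ornithine aminotransferase, was lower (−0.40 ± 0.06, adjusted p 0.000715).

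Genes of DNA replication and the cell cycle were higher in 24 of 40 cases (60.0%) and lower in none, with a median of 0.78, and in 27 cases without SAH 1d-3, with a median of 0.81. The helicase subunits that load onto replication origins led the list. Mcm5 ranged from 1.16 to 3.09 CPM in sham (median 1.24) and from 6.84 to 15.9 CPM in SAH 1d (median 11.8), with 2.84 ± 0.30 (adjusted p 6.23e-05). Mcm2 rose by 1.67 ± 0.16 (adjusted p 3.81e-05), Mcm6 by 1.38 and Mcm4 by 1.09. The groups of all 4 genes were separate, and sham-1 was the highest sham library for Mcm2 and Mcm5. Monocyte and macrophage markers summed to 139.0 to 224.4 CPM in sham and to 232.0 to 1010 CPM in SAH 1d, with 6 of 12 higher, and their part in this list was not tested.

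Genes of p53 and apoptosis were higher in 17 of 32 cases (53.1%) and lower in 1, with a median of 0.82 and of 0.61 without SAH 1d-3. Phlda3, a p53 target that blocks AKT, ranged from 14.5 to 17 CPM in sham and from 25.3 to 33.5 CPM in SAH 1d (0.86 ± 0.08, adjusted p 3.91e-05). The pore-forming Bak1 (1.13 ± 0.12) and the BH3 protein Bid (1.08) rose, and Casp9, the initiator caspase, was lower (−0.46 ± 0.10, adjusted p 0.00711). Hypoxia response genes were mixed, with 10 of 30 higher (33.3%), 2 lower and a median of 0.14. The prolyl hydroxylases of collagen P4ha2 (0.90 ± 0.08, adjusted p 2.31e-05) and P4ha1 (0.69), the secreted protein Stc2 (2.63 ± 0.28) and Adm, adrenomedullin (2.05), rose. The mitophagy receptors Bnip3 (−0.35) and Bnip3l (−0.44 ± 0.06, adjusted p 0.000505), which hypoxia usually induces, were lower.

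Hemoglobin breakdown was represented by Hmox1, heme oxygenase 1. It ranged from 4.46 to 7.25 CPM in sham (median 5.98) and from 57.6 to 384 CPM in SAH 1d (median 77.9). SAH 1d-3 held 384 CPM, and the log2 fold change was 4.48 ± 0.47 (adjusted p 6.48e-05) with it and 3.79 without it. Hmox2, the constitutive enzyme of neurons, was lower (−0.36 ± 0.10, adjusted p 0.0161). Of 30 heme and iron genes, 9 were higher (30.0%) and 2 lower. The ferroxidase ceruloplasmin, Cp (2.38 ± 0.34), and the heme scavenger hemopexin, Hpx (3.89 ± 0.58, from a median of 0.136 to 1.61 CPM), were among those that rose. Of 35 NRF2 targets and antioxidant enzymes, 14 were higher (40.0%) and none lower, with a median of 0.35. Osgin1 (2.73 ± 0.40), Gpx1 (0.70) and Nfe2l2, which encodes NRF2 (0.86), rose. Of 20 metallothioneins and zinc transporters, 7 were higher and 2 lower. Mt2A rose from a median of 11.9 to 62.5 CPM (2.28 ± 0.24, adjusted p 6.57e-05), Mt1 by 2.59 and the zinc importer Slc39a1 by 1.18, while Slc30a3, which loads zinc into synaptic vesicles (−1.14 ± 0.22, adjusted p 0.00283), and Slc39a10 (−0.82) were lower.

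Among vascular genes that passed the test, more were higher than lower, although the barrier list had a median near 0. Of 34 tested genes of blood-brain barrier endothelium, 10 were higher (29.4%, against 14.9% of all genes) and 2 lower, with a median of 0.01. Of the 34 values, 18 were positive and 16 negative. Without SAH 1d-3, 10 were higher and 5 lower, with a median of −0.02. The transporters Slc16a1 (0.77), Slc3a2 (0.79 ± 0.13) and Slc7a5 (0.59) rose, and Itm2a was lower (−0.88 ± 0.22, adjusted p 0.0127). Genes of endothelial activation and angiogenesis were higher in 22 of 40 cases (55.0%) and lower in 1, with a median of 0.92 and of 0.55 without SAH 1d-3. Vwf, von Willebrand factor, ranged from 33.1 to 61.2 CPM in sham (median 44.4) and from 97.8 to 128 CPM in SAH 1d (median 111), with 1.26 ± 0.14 (adjusted p 8.27e-05). Its values were close together in SAH 1d, whereas Adamts1, a matrix protease, was at 203 CPM in SAH 1d-3 and rose by 3.34 ± 0.48 with it and by 2.80 without it. The growth factor Hbegf (2.95 ± 0.36) and the glycoprotein Pdpn (2.45 ± 0.31) rose in every SAH 1d library above every sham library. Of 22 mural cell genes, 5 were higher (22.7%) and 2 lower (9.09%, against 10.5% of all genes), and Des, desmin, rose by 1.68 ± 0.20.

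Matrix and cytoskeletal genes were higher in larger numbers. Of 54 genes of collagens, laminins and matrix, 22 were higher (40.7%) and 3 lower, with a median of 0.51, and Col16a1 (1.28 ± 0.16, adjusted p 0.000181) and the collagen chaperone Serpinh1 (1.34) were examples. Of 35 matrix proteases, plasminogen genes and inhibitors, 16 were higher (45.7%) and 2 lower. Timp1, an inhibitor of metalloproteases, was at 1.46 to 3.56 CPM in sham, at 29.9 to 72 CPM in 5 SAH 1d libraries and at 647 CPM in SAH 1d-3. The fitted log2 fold change was 5.98 ± 0.89 (adjusted p 0.000684), and 4.33 without SAH 1d-3. Serping1, the C1 inhibitor (2.08 ± 0.21), and Mmp19 (2.20) rose, and Timp4 was lower (−0.91 ± 0.20, adjusted p 0.00667). Of 52 actin, annexin and S100 genes, 29 were higher (55.8%) and 3 lower, with a median of 0.69, including the calponins Cnn2 (1.96) and Cnn3 (1.39 ± 0.15) and S100a4 (2.73).

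Genes that neurons induce on activity or injury varied between the rats. Of 30 immediate early genes, 8 were higher (26.7%) and 1 lower, with a median of 0.91 and of 0.46 without SAH 1d-3. The mean log2 CPM of the list was above the sham mean by 1.85 in SAH 1d-3 and by 1.80 in SAH 1d-5. In the other SAH 1d libraries the difference was −0.30 to 0.18, within the sham range of −0.32 to 0.37. All SAH 1d libraries were above all sham libraries for 5 of the 30 genes, and for 8.02% of all genes. Gadd45b rose by 2.13 ± 0.38 (adjusted p 0.00192), Sik1 by 1.55, Csrnp1 by 1.94 and Npas4, a factor that neurons induce on calcium entry, by 2.25 ± 0.49. Fos was at 133 CPM in SAH 1d-3 and 213 CPM in SAH 1d-5, at 17.6 to 28.1 CPM in the other SAH 1d libraries and at 11.8 to 26.7 CPM in sham. Its log2 fold change of 2.03 ± 0.63 (adjusted p 0.0319) became 1.76 (adjusted p 0.0504) without SAH 1d-3 and 1.32 (adjusted p 0.0838) without SAH 1d-5. The call was also lost without any 1 of sham-2 to sham-6, with values of 1.94 to 2.11. Bdnf, the neurotrophin, was at 270 CPM in SAH 1d-3 and 60.7 CPM in SAH 1d-5, at 10.1 to 16.6 CPM in the other SAH 1d libraries and at 26.9 to 41.7 CPM in sham. Thus 4 SAH 1d libraries lay below every sham library and 2 above, with a log2 fold change of 1.03 ± 0.73 (adjusted p 0.32).

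Of 36 genes of axon injury and regrowth, 9 were higher and 9 lower, each 25.0%. Those that rose were injury-induced factors and other genes, such as Atf3 (4.61 ± 0.63, from a median of 0.953 to 13.1 CPM), Stat3 (1.41), Smad1 (0.75 ± 0.09) and Tubb6 (3.35). Those that were lower included structural genes of neurons, such as Tubb3 (−0.69 ± 0.10, adjusted p 0.000526), Stmn2 (−0.60), Nefl (−0.65) and Gap43 (−0.69). Nefl, the neurofilament light chain, ranged from 772 to 1112 CPM in sham (median 1053) and from 536 to 747 CPM in SAH 1d (median 637), without overlap.

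Growth factors and MAPK feedback genes were higher in 13 of 47 cases (27.7%) and lower in 2, with a median of 0.56 that was 0.20 without SAH 1d-3. Gdf15, a stress hormone (4.40 ± 0.74, from a median of 0.0758 to 1.43 CPM), Tgfb1 (1.66) and Lif (6.17 ± 1.18, and 4.49 without SAH 1d-3) rose, and Etv5, a target of FGF signaling, was lower (−0.85 ± 0.14, adjusted p 0.00121). Wnt, Notch and BMP genes were near the background, with 9 of 45 higher and 2 lower, and Wnt7b (0.73) and Dll1 (0.87) were among those that rose. Of 24 glucocorticoid response genes, 6 were higher (25.0%, against 14.9% of all genes) and 1 lower (4.17%, against 10.5%). Cebpd, a transcription factor of acute inflammation, rose by 3.49 ± 0.31 (adjusted p 2.31e-05), Angptl4 by 2.16 and Nfkbia, the inhibitor of NF-kappaB, by 1.65. Of 23 circadian clock genes, 4 were higher (17.4%, against 14.9% of all genes) and 1 lower (4.35%, against 10.5%), with a median of 0.06. Thus the share that was higher was near the background. Among these members were Rora (1.63) and Csnk1d (0.28 ± 0.06, adjusted p 0.00547).

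Immune genes were higher in large numbers. Of 34 complement and coagulation genes tested, 26 were higher (76.5%, against 14.9% of all genes). Of 30 chemokines and cytokines, 20 were higher (66.7%), and of 30 interferon-stimulated genes, 14 (46.7%). A gene could pass the low-count filter through SAH libraries alone, as did Kng1, Cxcl2 and Ccl12, which had no count in sham. Such genes can raise these shares. The interferon-stimulated genes overlapped between the groups in their summed level, which was 849.5 CPM in sham-2, 840.0 CPM in sham-4, 183 to 288 CPM in the other 4 sham rats and 530.5 to 1792 CPM in SAH 1d. Complement C3 ranged from 4.01 to 18.5 CPM in sham and from 49.7 to 64.1 CPM in SAH 1d (2.43 ± 0.35, adjusted p 0.000544), and SAH 1d-3 was the lowest SAH 1d library. A2m (2.61 ± 0.25), C1s (1.92) and C1qc (1.73) rose too, and the call of A2m and C1qc was lost with all 18 libraries in 1 fit. The chemokines Ccl2 (7.56 ± 1.04, and 5.89 without SAH 1d-3), Cxcl10 (4.10 ± 0.47, and 4.17) and Cxcl11 (3.44, and 3.26) rose. The neuronal chemokine Cx3cl1, which microglia read through its receptor, was lower together with Cxcl12, from a median of 606 to 340 CPM (−0.80 ± 0.11, adjusted p 0.00036).

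**Figure D4:**
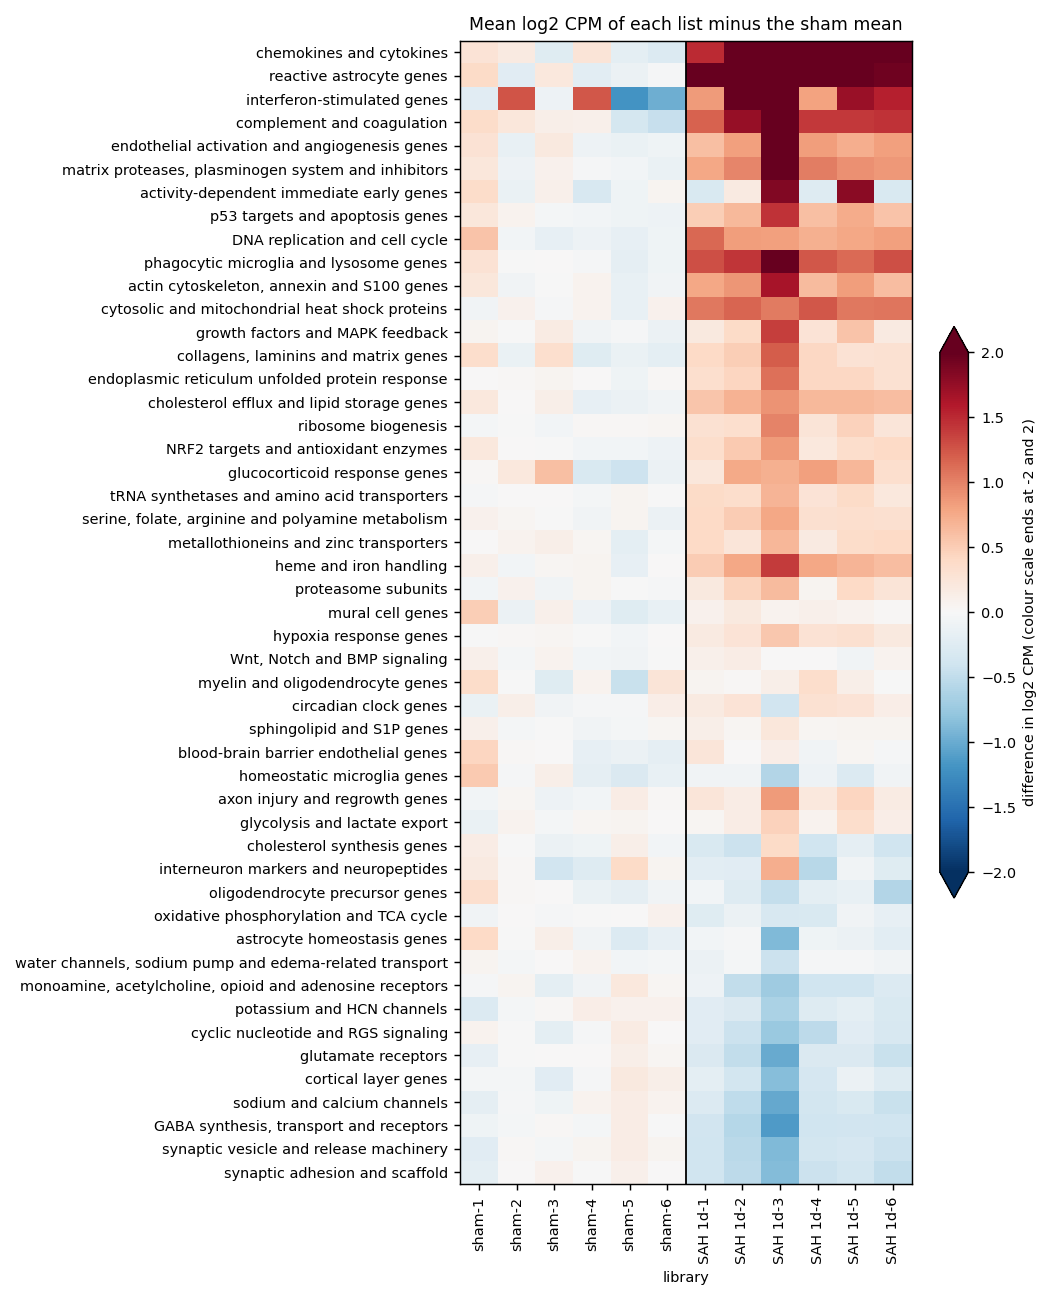
Mean log2 CPM of each of 49 gene lists (rows) in each of the 12 libraries (columns), minus the mean of the 6 sham libraries, with red for higher, blue for lower and the colour scale ending at −2 and 2. SAH 1d-3 is the darkest column for synaptic and receptor lists and for most of the lists that are higher, while heat shock proteins are of even colour across the 6 SAH 1d libraries.

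The largest increases that held without SAH 1d-3 and did not overlap were led by Kng1, Hspa1a and Slpi. Kng1, a kininogen and precursor of bradykinin, had no count in any sham library and 3.03 to 41 CPM in SAH 1d. Against a floor of 3 counts over the sham group, it was at least 609-fold higher, and at least 244-fold without SAH 1d-3. The rat has near-identical kininogen genes, so its counts may be shared between copies. Slpi, a protease inhibitor of leukocytes and epithelia, was also at 0 in sham, and at least 293-fold higher with SAH 1d-3 (26.6 CPM) but at least 37.0-fold without it. Ptx3 (7.05), Cxcl1 (8.15), Itgax (6.44), Spp1 (5.90), Ccl3 (6.43), FAM187A (5.59), Ccl4 (5.67), Ccl7 (5.91) and Csf2rb (5.23) followed, all of them with their highest value in SAH 1d-3. These are a pattern recognition protein, chemokines, an integrin, osteopontin and a cytokine receptor of myeloid cells, apart from FAM187A. Other genes at 0 in every sham library were Ccl12, at least 87.0-fold higher (83.8 without SAH 1d-3), Serpinb11 (42.7 and 40.9) and Mcemp1 (131 and 40.2). The myeloid integrins Itgam (2.72 ± 0.21) and Itgal (3.24 ± 0.25) and Glipr2 (3.89 ± 0.29) were among the increases with the lowest adjusted p.

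In some DEGs, SAH 1d-3 held most of the summed level of the group. Its share was 93.4% for Trh, 93% for Cxcl2, 91.3% for Il6, 90.4% for Il1rn, 90.2% for Il11, 89.5% for Slpi, 88.9% for Clec4d and 88.9% for Nos2. Trh, Il1rn and Nos2 lost their calls without that library, and the other 5 did not. Trh, the precursor of thyrotropin-releasing hormone, was at 141 CPM in SAH 1d-3 and at 1.25 to 2.97 CPM in the other 5 libraries, which overlapped the sham range of 0 to 3.09 CPM. A log2 fold change of 4.34 ± 1.37 (adjusted p 0.0338) became 0.68 (adjusted p 0.451) without that library, and the call was also lost without any 1 of sham-2 to sham-6. Il1rn went from 3.83 (adjusted p 0.029) to 0.70 (adjusted p 0.18), and Nos2, the inducible nitric oxide synthase, from 4.34 (adjusted p 0.0208) to 1.43 (adjusted p 0.0633). The call of Il1rn was lost as well without any 1 of sham-3 to sham-6, and that of Cxcl2 without any 1 of sham-2 to sham-6. Il6 (6.50, then 3.24 with an adjusted p of 0.00414), Il11 (7.18, then 4.08) and Clec4d (6.73, then 3.82) kept their calls without SAH 1d-3 at smaller values, and Slpi had 7.24 (adjusted p 0.000165) without it.

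**Figure D5:**
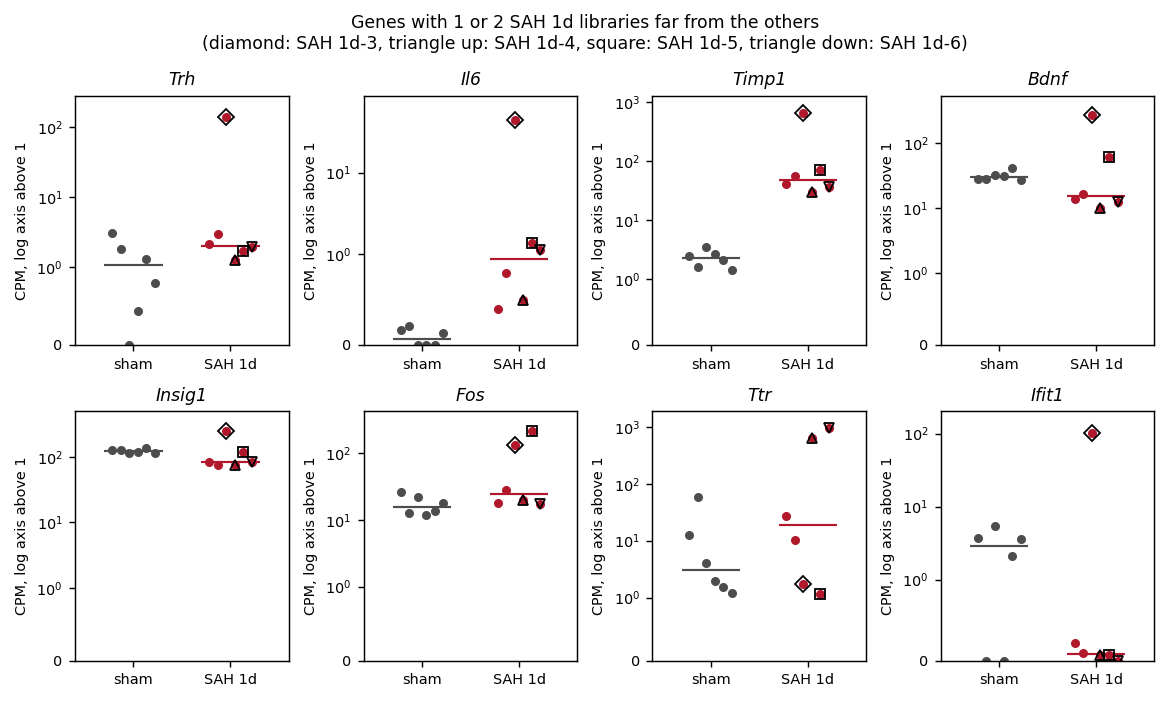
CPM (y axis, linear to 1 and logarithmic above) of 8 genes with 1 point per rat, libraries 1 to 6 from left to right in each group, a line at the group median and marks around SAH 1d-3 (diamond), SAH 1d-4 (upward triangle), SAH 1d-5 (square) and SAH 1d-6 (downward triangle). Trh, Il6, Timp1 and Insig1 are highest in SAH 1d-3, Fos and Bdnf in SAH 1d-3 and SAH 1d-5, and Ttr in SAH 1d-4 and SAH 1d-6.

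Genes that became DEGs only without SAH 1d-3 were of other kinds. Ttr, the transthyretin of choroid plexus, was at 638 CPM in SAH 1d-4 and 938 CPM in SAH 1d-6, at 1.16 to 27.7 CPM in the other SAH 1d libraries and at 1.19 to 58.2 CPM in sham. The log2 fold change of this gene was 4.35 ± 1.61 (adjusted p 0.0626) and 4.61 (adjusted p 0.0306) without SAH 1d-3. Without SAH 1d-4 and SAH 1d-6, the libraries rich in choroid plexus markers, it was −0.36 (adjusted p 0.846). Folr1, another choroid plexus marker, went from 3.38 (adjusted p 0.0506) to 3.63 without SAH 1d-3 and to 0.27 without SAH 1d-4 and SAH 1d-6. Plg, plasminogen (1.80 without SAH 1d-3), Mak (1.82), Rsph4a, a gene of motile cilia (1.75), and Sec14l3 (1.71) were low in all libraries, and Ppp1r17 was lower (−1.84). Ifit1, an interferon-stimulated gene, was at 100 CPM in SAH 1d-3 and at 0.213 CPM or less in the other 5 SAH 1d libraries. In sham it was at 2.1 to 5.5 CPM in 4 libraries and at 0 in sham-2 and sham-4. The log2 fold change was 2.77 ± 1.72 (adjusted p 0.251) with all 12 libraries and −4.71 (adjusted p 0.0119) without SAH 1d-3.

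The same genes were read at 7 days in other rats, against the same 6 sham rats, so the comparisons are not independent. In SAH 7d against sham, 0 of 18444 genes were higher and 0 lower at an adjusted p under 0.05. A value that did not pass there therefore does not show a return to the sham level. The counts of SAH 7d-5 differed more from the other SAH 7d libraries than these differed among themselves. Hspa1a had a log2 fold change of 8.14 over sham in SAH 1d and of 2.86 (adjusted p 0.23) in SAH 7d, and the direct comparison of SAH 7d with SAH 1d gave −5.29 (adjusted p 0.00041). Its SAH 7d median was 7.53 CPM (range 3.3 to 25.55), against a sham median of 1.15 CPM. Hspd1 was at 1.35 and 0.04 over sham, with −1.31 (adjusted p 0.00013) between the days. Zfand2a was at 2.09 and −0.04 over sham, with −2.13 (adjusted p 0.00013) between the days, and Hspb1 fell by 3.75 (adjusted p 0.0014). Cxcl12 was at −1.33 and −0.07 over sham, with 1.25 (adjusted p 0.036) between the days. Sptssb was at −1.79 and −0.61, with a difference of 1.17 (adjusted p 0.096) that did not pass the test. Gpnmb ranged from 15.6 to 4546 CPM in SAH 7d, the highest being SAH 7d-5, with a median of 36.3 CPM that was below the 116 CPM of SAH 1d. Its difference between the days did not pass the test (adjusted p 0.39), nor did that of Gfap, at −0.91 (adjusted p 0.25).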

How the data were processed

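RNA was extracted with Trizol from the cortex of single rats, libraries were made with a NEBNext Ultra kit and read on an Illumina HiSeq, and a table of whole-number counts per gene was deposited by the authors, with a table of FPKM values (fragments scaled by gene length and depth) beside it. The submitters' processing notes name fastp, HISAT2, DESeq2 1.16.1 and the mouse build mm9, while the study's methods name a rat genome, whose identifiers the tables carry. The counting program and its use of strand are not named in the labels or the methods, so overlapping and antisense genes may share counts. Columns were matched to samples by the deposited descriptions and to groups by the labels.

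Counts were tested with edgeR 4.0.16 in R 4.3.3 (quasi-likelihood F test, TMM scaling, two-sided), after a low-count filter over all 18 libraries, and p-values were adjusted by Benjamini-Hochberg over the 18444 genes tested. The standard error of a log2 fold change was derived from the F statistic. CPM used the effective library sizes of the 12 libraries, and list scores were means of log2 CPM with a prior count of 2. FPKM values were tested with limma 3.58.1 on log2(FPKM + pseudocount), with pseudocounts of 1 and 0.1 and a minimum mean FPKM of 0.5. Alternatives were DESeq2 1.42.0 (test and size factors), voom quality weights, a robust fit, all 18 libraries in 1 fit, other filters, a replicate block and leaving out each library. Fits without SAH 1d-4 and SAH 1d-6, and without these and SAH 1d-3, were added after seeing the data. The scripts were tested on simulated data. Python 3.11.15 (matplotlib 3.10.9, numpy 2.4.6, pandas 2.3.3) made the tables and figures.

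Genes named by rule were the 15 largest increases and decreases among symbol genes called with and without SAH 1d-3, without overlap and with at least 3 CPM in the higher group, the 10 with the lowest adjusted p in each direction, up to 4 per list and direction, 8 whose SAH 1d level came most from SAH 1d-3 and 8 called only without it. Other genes named were chosen after their values were seen. The comparison, the gene lists and the rule were chosen with earlier results of these data known. Each library is a rat by the methods, no replicates had near-identical counts, and counting error is small at this depth for all but the lowest genes. Loci outside the annotation were tested but are not named, and some genes that the rule takes are not reported here.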

Additional observations from a re-analysis of the deposited data

Results flagged for a closer look

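Single libraries stood apart from the other 5 of their group by Dixon's criterion in 46 of the 186 groups of 6 values checked, and 35 of the 46 were SAH 1d-3. The criterion would flag about 1 in 20 groups of independent, normally distributed values. The groups checked were not independent, since they include genes chosen for large changes and lists that share genes, so this rate is no test of the count. SAH 1d-3 was high for Kng1 (41.0 CPM), Slpi (26.6 CPM), Ccl2 (250 CPM), Cxcl1 (37.8 CPM), Ccl7 (47.1 CPM) and Csf2rb (118.0 CPM), and low for Ttpa (2.59 CPM) and Camkk2 (6.84 CPM). It also had the highest total count, 38271014.

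The scores of several neuronal lists, as mean log2 CPM, were low in SAH 1d-3. They were 6.332 for synaptic vesicles, 5.769 for synaptic adhesion, 4.565 for glutamate receptors, 5.603 for GABA genes, 3.925 for potassium channels, 5.249 for sodium and calcium channels, 4.529 for cortical layer genes and 6.861 for cortical neuron markers. The score of hippocampal neuron markers was instead high there, at 4.343 against 3.224 to 3.351 in the other SAH 1d libraries. Low scores were also found there for astrocyte homeostasis (5.657), the water channel and pump list (5.846) and circadian genes (4.948).

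High scores in SAH 1d-3 were those of reactive astrocytes (5.781), phagocytic microglia (6.69), endothelial activation (4.852), matrix genes (5.216), matrix proteases (4.523), the unfolded protein response (6.438), p53 and apoptosis (4.598), heme and iron (5.401), cholesterol synthesis (6.346), ribosome biogenesis (5.783), growth factors (4.599), actin and annexins (6.714), chemokines (4.185) and neutrophil markers (4.641).

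The remaining values were spread over other rats. Sham-1 was high for Ddc (19.9 CPM) and for the scores of barrier endothelium (5.519), NRF2 targets (5.585) and DNA replication (2.67), and low for synaptic adhesion (6.45) and cortical neuron markers (7.807). Sham-5 was the 1 sham library with counts of Cxcl1 (0.133 CPM) and was low for the unfolded protein response (5.236). Sptssb was high in SAH 1d-5 (12.8 CPM), the myelin score in SAH 1d-4 (6.735) and the DNA replication score in SAH 1d-1 (3.251).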

How the results depend on the processing

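Of 254 genes compared under up to 25 alternatives, 192 kept their direction and their side of the threshold under those that gave a value. The stricter count filter, DESeq2 and the FPKM scales gave none for some genes. The number of DEGs that were higher (1028 in the report) was 638 with all 18 libraries in 1 fit, 471 on log2(FPKM + 1) and 454 on that scale with no filter. The number of DEGs that were lower (196) was 124 with at least 10 counts in every library, 81 on log2(FPKM + 0.1), 25 on log2(FPKM + 1), 19 with no filter there, and 111 without SAH 1d-3, SAH 1d-4 and SAH 1d-6. Without the fold limit, the genes higher (2748) were 1509 with all 18 libraries, and the genes lower (1936) were 953 with all 18 libraries, 956, 983 and 809 on the FPKM scales in the same order, and 3016 with voom quality weights. Genes without overlap (2470) became 2394 higher and 355 lower on the FPKM scale. Leaving out 1 library gave 838 to 1127 and 152 to 238 DEGs, 2101 to 2846 and 1413 to 2406 genes without the fold limit, and 2627 to 3649 genes without overlap. The cause of these shifts was not tested, except that the fit of 18 libraries includes the SAH 7d rats and the stricter filter tests fewer genes.

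With all 18 libraries, 30 named genes lost their call, among them Rab15, Atp1b1, Slc12a7, Rph3a, Unc13a, Snap25, Grm7, Kcnn4, Cacna2d3, Nefl, P2ry12, P2ry13, Ctsd, Bnip3, Gpx1, Nfe2l2, Hmgcs1, Fdps, Cyp46a1, Hk3 and Tgfb1, and 25 or fewer did under each FPKM alternative. Directions reversed for 4 genes. Ifit1 (2.77) was −0.88 on log2(FPKM + 0.1), −1.84 with voom, −2.01 with the replicate block, −4.71 without SAH 1d-3 and up to 3.17 without any other single library, and −4.23 without SAH 1d-3, SAH 1d-4 and SAH 1d-6. Bdnf (1.03) was −0.056, −0.83, −0.28, −0.47 and −0.05 under the same alternatives, and up to 1.25 without any other single library. Ttr (4.35) was −0.36 without SAH 1d-4 and SAH 1d-6 and −0.008 when SAH 1d-3 was left out too, and Insig1 (−0.11) was 0.10 without SAH 1d-4 and SAH 1d-6. List medians changed sign only for axon injury, barrier endothelium, glycolysis, homeostatic microglia and myelin.

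The correlation of deviations between rats with the same number was −0.0468 to 0.0656, and 0 of 6 matched best with their own number. With 6 pairs, this check cannot show that rats with the same number shared no handling. The replicate block gave 873 DEGs higher and 187 lower, and 2268 and 1711 genes without the fold limit. Counts at or near 0, as for Kng1, Slpi and Cxcl2 in sham, limit the folds to lower bounds. The side of the cortex sampled, the sex of the rats and the mapping build could not be checked.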

Other observations

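A few genes, chosen after their values were seen, separated rats within the groups rather than the groups. Mx1, an interferon-stimulated gene, was at 57.4 CPM in sham-2 and 52.2 CPM in sham-4 and at 0.96 to 3.15 CPM in the other 4 sham rats, and at 33.7 to 139 CPM in SAH 1d, so that its log2 fold change of 1.75 had an adjusted p of 0.174. Ifit1, of the same family of responses, was at 0 in just those sham rats, sham-2 and sham-4, and at 2.1 to 5.5 CPM in the other 4, with 100 CPM in SAH 1d-3 and 0.213 CPM or less in the other SAH 1d rats. The muscle gene Asb15 was at 14.2 CPM in sham-5 and 12.3 CPM in sham-6 and at 0.65 CPM or less in the other 10 libraries. Car3, a carbonic anhydrase of muscle and fat, was at 43.6 CPM in sham-1 and 31 CPM in sham-5 and at 2.28 CPM or less elsewhere.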
